A study of Mus musculus with 2 samples.

Results

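Integrins and laminins were examined as 37 genes: 18 integrin alpha chains, 8 integrin beta chains and 11 laminin chains, of 25828 features in each count matrix. They were picked by symbol alone (Itga and Itgb with a number or the letters v, x, l, m, d, e or 2b, and Lama, Lamb and Lamc with a number), a rule that uses no level. The cells were induced myogenic progenitor cells (iMPCs), muscle stem cell-like cells reprogrammed from fibroblasts of C57BL6;DBA2 mice carrying the Pax7-nGFP reporter transgene (Tg:Pax7-nGFP). The F/R/C+CP iMPCs were derived and cultured with Forskolin, RepSox, CHIR and the Janus kinase (JAK) inhibitor CP. The F/R/C iMPCs were derived and cultured with Forskolin, RepSox and CHIR alone. Both were generated by 4 transfections of synthetic MyoD mRNA in iMPC medium with B18R, an interferon-binding protein, and RepSox, which blocks the TGF-β receptor, was present in both groups. Each group was 1 clone and 1 droplet library, strained of myofibers beforehand, and a difference between the libraries cannot be told apart from a difference between clones or between runs.

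Integrins are cell surface receptors made of an alpha and a beta chain that bind extracellular matrix and connect it to the actin cytoskeleton. Laminins are trimers of an alpha, a beta and a gamma chain and form, with collagen IV and nidogen, the basement membrane that wraps every muscle fibre and the stem cells beneath it. In skeletal muscle the main laminin is built from Lama2 with Lamb1 or Lamb2 and Lamc1, and the main integrin that binds it is Itga7 paired with Itgb1. Loss of either Lama2 or Itga7 causes muscle disease.

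After the quality limits of the study, 10834 of 12000 barcodes were kept in the F/R/C+CP library and 3962 of 5541 in the F/R/C library, with medians of 21844 and 7112 unique molecular identifiers (UMIs) and 271351748 and 27850218 UMIs in all. The lowest kept barcode had 12097 UMIs in F/R/C+CP against 500 in F/R/C, and 11 kept barcode sequences occurred in both libraries. Barcodes were divided into exclusive classes, taken in the order Acta1-high (Acta1 at 10000 UMIs per 1000000, CPM, or more), Myog-high (Myog at 300 CPM or more and at least 2 UMIs), Bgn-positive (Bgn at 200 CPM or more and at least 2 UMIs) and Pax7-positive (at least 1 Pax7 UMI). Pax7 marks muscle stem cells, Myog committed cells, Acta1 contractile cells and Bgn connective tissue and mural cells. F/R/C+CP held 5110 Pax7-positive, 3297 Myog-high, 1041 Acta1-high and 206 Bgn-positive barcodes, against 1654, 1121, 215 and 55 in F/R/C. The 6 other muscle markers (Tnnt3, Tnnc2, Ckm, Myh1, Myh3 and Ttn) summed to 23561 CPM in Acta1-high and 1688 CPM in Pax7-positive barcodes of F/R/C+CP, and to 16302 and 173 CPM in F/R/C, so the Pax7-positive class held 7.17% and 1.06% of the Acta1-high level. These classes are ranges of a measured level and not cell types: in F/R/C+CP and F/R/C, 554 and 146 kept barcodes had Acta1 between 8000 and 12500 CPM, 641 and 110 had Myog between 240 and 375 CPM and 94 and 39 had Bgn between 160 and 250 CPM, and 1255 and 620 Pax7-positive barcodes had exactly 1 Pax7 UMI.

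Levels are UMIs summed over a class and divided by its total, in CPM. The protocol tags transcripts at the 3′ end, and levels of different chains were compared without a length correction. An effect of gene length on these levels was not tested. Brackets hold 95% intervals, exact Poisson for levels, exact conditional binomial for log2 ratios and exact Clopper-Pearson for shares, and all cover counting error only. With 1 library a group no test was possible. A gene was called higher or lower where the ratio of CPM was 2-fold or more and its interval left out 0 on the log2 scale, among genes with 10 or more counts in the pair of sums.

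Of the 37 members, 18 reached 20 CPM in at least 1 class of either library: Itga1, Itga4, Itga5, Itga6, Itga7, Itga9, Itgav, Itgb1, Itgb5, Itgb6, Itgb8, Lama2, Lama4, Lama5, Lamb1, Lamb2, Lamb3 and Lamc1. The other 19 stayed below 20 CPM in every class. All 37 had a count in the F/R/C+CP library and 36 in the F/R/C library, where Itgax had none, and 36 and 27 had 10 counts or more. Itgb1, the common partner of most alpha chains, was the highest beta chain in all 4 classes of both libraries, and Lama2 was the highest laminin in all of them.

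**Figure D1:**
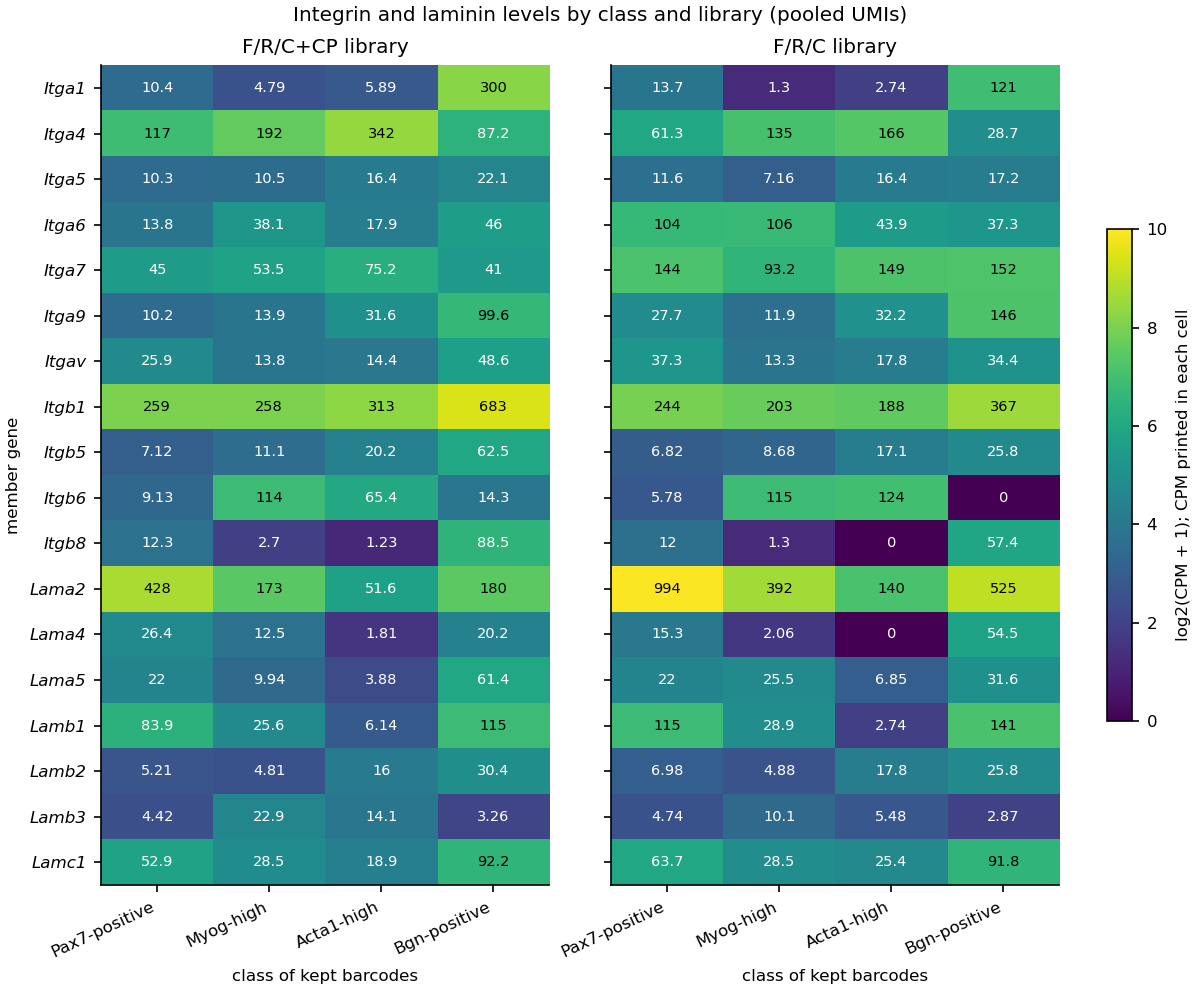
Level in CPM, printed in each cell and coloured on a log2(CPM + 1) scale, of the 18 members that reached 20 CPM, in 4 classes of kept barcodes of the F/R/C+CP (left) and F/R/C (right) libraries. Itga6 and Itga7 had 13.8 and 45.0 CPM in Pax7-positive barcodes of F/R/C+CP against 104 and 144 CPM in F/R/C, and Itgb6 was above 60 CPM in the Myog-high and Acta1-high classes of both libraries.

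The first comparison asked how the receptor chains of Pax7-positive barcodes differed between the libraries. The cut of 1 Pax7 UMI admits lower Pax7 levels in deeper barcodes, so the classes were not matched. Median depths were 20569 UMIs in F/R/C+CP and 7429.5 UMIs in F/R/C. Median Pax7 levels were 135 and 285 CPM, and median Myog levels 78.8 and 0 CPM. The laminin-binding alpha chains were lower with CP. Itga6, a laminin receptor chain that pairs with Itgb1 or Itgb4, had 13.8 CPM (13.1 to 14.5) in F/R/C+CP and 104 CPM (98.5 to 109.9) in F/R/C Pax7-positive barcodes, a log2 ratio of -2.91 (-3.02 to -2.81), or 7.54-fold lower. Itga7, the main laminin receptor chain of muscle, had 45.0 CPM in F/R/C+CP against 144 CPM in F/R/C (log2 ratio -1.68, -1.76 to -1.60). Itga9, which pairs with Itgb1 and binds tenascin-C and osteopontin, had 10.2 CPM in F/R/C+CP and 27.7 CPM in F/R/C (-1.44, -1.62 to -1.27). Lama2, the ligand chain, moved the same way, with 428 CPM in F/R/C+CP against 994 CPM in F/R/C (-1.22, -1.24 to -1.19). Thus a receptor chain and the laminin chain it binds were both lower in the F/R/C+CP library.

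Other chains of the Pax7-positive class stayed within 2-fold. Itga4, a receptor chain for Vcam1 and fibronectin, had 117 CPM in F/R/C+CP and 61.3 CPM in F/R/C, a log2 ratio of 0.94 (0.83 to 1.05) that lay just inside the limit. Lama4, a chain best known from vessel basement membranes, had 26.4 CPM in F/R/C+CP and 15.3 CPM in F/R/C (0.79, 0.58 to 1.01). Itgb1 differed little between the libraries, with 259 CPM in F/R/C+CP and 243.5 CPM in F/R/C (0.09, 0.04 to 0.14). Lamc1, the gamma chain shared by most laminins, had 52.9 CPM in F/R/C+CP and 63.7 CPM in F/R/C (-0.27, -0.37 to -0.16), and Lamb1 had 83.9 CPM in F/R/C+CP and 115 CPM in F/R/C (-0.46, -0.54 to -0.38). Lama5 was level at 22.0 CPM in each library.

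In all, 2 of 34 members compared were higher and 7 lower in F/R/C+CP Pax7-positive barcodes. Over all 16567 genes compared, 20% were called in either direction, 8.61% higher and 11.4% lower. Over all kept barcodes, whatever their class, 3 of 36 members were higher and 7 lower in F/R/C+CP, with 20.9% of all genes called, 9.24% higher and 11.7% lower. In the Pax7-positive class the median log2 ratio was -0.29 over the members, 3 of them set at a bound, and -0.12 over all genes. The called members below 20 CPM included Itga2, Itga3 and Itgb4, lower in F/R/C+CP, and Itgae was among those higher in F/R/C+CP, on 168 counts against 8 counts. The 2 libraries overlap little in depth: between 12097 and 23465 UMIs, 3342 F/R/C+CP and 46 F/R/C Pax7-positive barcodes remained, and there Itga6 and Itga7 had log2 ratios of -3.15 and -1.65, Lama2 -1.45 and Itga9 -0.94, no longer 2-fold. Over all kept barcodes, Itga6 had a log2 ratio of -2.48 and Lama2 of -0.71 in that range, against -2.12 and -1.36 at every depth.

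**Figure D2:**
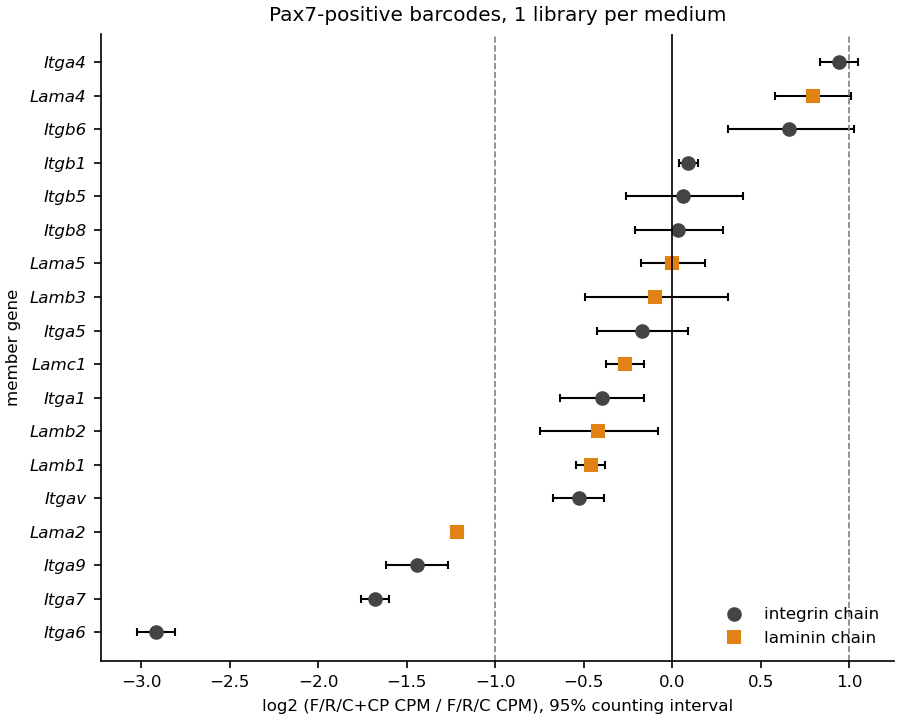
Log2 ratio of CPM (F/R/C+CP divided by F/R/C) in Pax7-positive barcodes for 18 members, with 95% counting intervals as bars, circles for integrins and squares for laminins. Dashed lines mark 2-fold: Itga6 (-2.91), Itga7 (-1.68), Itga9 (-1.44) and Lama2 (-1.22) lie to the left of it, and Itga4 (0.94) is the highest.

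These levels gave the F/R/C+CP cells a different mix of alpha chains. Laminin-binding chains (Itga3, Itga6 and Itga7) made up 24.3% (23.8 to 24.8) of all integrin alpha UMIs in Pax7-positive barcodes of F/R/C+CP, against 59.9% (58.5 to 61.2) in F/R/C. The pair Itga4 and Itga9 made up 52.6% (52.0 to 53.2) in F/R/C+CP and 21.4% (20.3 to 22.5) in F/R/C. Itga4 held most of the pair, with 13233 of 14380 UMIs in F/R/C+CP and 763 of 1108 in F/R/C. Itga9 itself was lower in F/R/C+CP, at 10.2 against 27.7 CPM. The total of alpha chain UMIs was also lower, at 243 CPM in F/R/C+CP and 416 CPM in F/R/C, while the beta chains summed to 289 and 273 CPM. In Acta1-high barcodes laminin-binding chains made up 17.8% of alpha UMIs in F/R/C+CP and 43.8% in F/R/C, and Itga4 with Itga9 71.1% in F/R/C+CP and 45.1% in F/R/C. There the libraries stood in the same order for both families. In Bgn-positive barcodes Itga4 with Itga9 made up 27.6% in F/R/C+CP (26.1 to 29.2) and 31.9% in F/R/C (25.4 to 39.1), not in that order. Collagen-binding chains differed little between the Pax7-positive classes, at 5.62% in F/R/C+CP and 5.76% in F/R/C.

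The lower Itga6 and Itga7 levels were also seen per barcode. After each barcode was thinned to 2000 UMIs, 2.97% of F/R/C+CP Pax7-positive barcodes (2.53 to 3.48) had an Itga6 UMI, against 16.1% in F/R/C (14.3 to 18.0). For Itga7 the shares were 8.24% in F/R/C+CP (7.50 to 9.03) and 23.5% in F/R/C (21.4 to 25.6). Without thinning the Itga6 shares were 19.9% and 43.1%, and the Itga7 shares 57.2% in F/R/C+CP and 57.9% in F/R/C, at median depths of 20569 and 7429.5 UMIs. No class here is known to lack Itga6 or Itga7. The background share of Itga6 and Itga7 was thus not measured. For scale, the lowest thinned share among the 11 chains counted in F/R/C+CP was 0.394%, for Itgb8 in Myog-high barcodes (median depth 23660 UMIs). In F/R/C it was 0%, for Itgb8 in Acta1-high barcodes (median depth 7331 UMIs, exact upper limit 2.02%) and for Itgb6 in Bgn-positive barcodes. These are shares of other chains and do not show how far the Itga6 and Itga7 shares stood above background.

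The next comparison followed the chains from Pax7-positive through Myog-high to Acta1-high cells within each library. Itgb6 showed the largest rise among the receptors at 20 CPM or more. Itgb6 pairs with Itgav alone, binds and activates latent TGF-β and is known mostly from epithelia. In Pax7-positive, Myog-high and Acta1-high barcodes it had 9.13, 114 and 65.4 CPM in F/R/C+CP, and 5.78, 115 and 124 CPM in F/R/C. The log2 ratio of Myog-high over Pax7-positive was 3.64 (3.55 to 3.73) in F/R/C+CP and 4.32 (3.97 to 4.68) in F/R/C, and that of Acta1-high over Pax7-positive 2.84 (2.74 to 2.94) and 4.42 (4.02 to 4.84). In Myog-high barcodes Itgb6 made up 29.4% of all beta chain UMIs in F/R/C+CP (28.9 to 29.9) and 35.0% in F/R/C (33.3 to 36.7), against 3.16% and 2.12% in Pax7-positive barcodes. After thinning, 17.7% of Myog-high barcodes of F/R/C+CP and 19.3% of those of F/R/C had an Itgb6 UMI, against 1.88% and 1.04% of Pax7-positive barcodes. In Bgn-positive barcodes the thinned share was 0.971% in F/R/C+CP (0.118 to 3.46) and 0% in F/R/C (upper limit 6.49), at median depths of 19167 and 5928 UMIs, while the F/R/C+CP level there, 14.3 CPM, was above that of Pax7-positive barcodes. Without thinning the Myog-high shares were 69.9% and 44.5% and the Pax7-positive shares 14.5% and 4.05%.

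The partner of Itgb6 went the other way or stayed within 2-fold. Itgav had 25.9, 13.8 and 14.4 CPM across Pax7-positive, Myog-high and Acta1-high barcodes of F/R/C+CP, and 37.3, 13.3 and 17.8 CPM in F/R/C. Its Myog-high over Pax7-positive ratio was -0.91 (-1.01 to -0.81) in F/R/C+CP and -1.48 (-1.78 to -1.19) in F/R/C, lower by the 2-fold limit in F/R/C alone, and the difference between these ratios was not tested. Itgb8, which also pairs with Itgav and activates latent TGF-β, had 12.3, 2.70 and 1.23 CPM in F/R/C+CP. In F/R/C it had 12.04 and 1.30 CPM in the Pax7-positive and Myog-high classes and no count in Acta1-high (exact upper limit 2.53 CPM). With that sum set to 3 counts, Itgb8 was 5.86-fold lower there than in Pax7-positive barcodes. From Pax7-positive to Myog-high barcodes Itgb6 thus rose and Itgb8 fell in both libraries. From Myog-high to Acta1-high barcodes of F/R/C+CP both were lower. Epithelial markers (Epcam, Krt8, Krt18 and Cdh1) stayed low: they summed to 0.764, 1.83 and 4.15 CPM across the stages in F/R/C+CP, with all 4 detected, and to 0.562, 0.651 and 3.43 CPM in F/R/C, where Epcam was at 0 in Myog-high and Acta1-high barcodes. Their part in the Itgb6 level was not tested.

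Itga4 rose with differentiation. It had 117, 192 and 342 CPM across the stages in F/R/C+CP and 61.3, 135 and 166 CPM in F/R/C. Acta1-high over Pax7-positive gave a log2 ratio of 1.54 (1.51 to 1.58) in F/R/C+CP and 1.44 (1.22 to 1.65) in F/R/C. At every stage the level was above that of F/R/C in F/R/C+CP. Vcam1, the cell surface ligand of the Itga4 receptor, had 1.42, 0.427 and 0.201 CPM across the stages in F/R/C+CP and 21.8, 1.74 and 0.685 CPM in F/R/C. Receptor chain and ligand thus ran in opposite directions across the stages in both libraries.

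The start regions of Itga4 and Itgb6, which were higher in Acta1-high than in Pax7-positive barcodes of both libraries, and of Lama2, the highest laminin, which was lower, are shown as RefSeq promoter windows (build GRCm38.p6, 250 bases before to 50 after the gene start, 5′ to 3′ on the gene's strand). Capitals mark CAGCTG, an E-box sequence to which muscle transcription factors of the MyoD family can bind, and which reads the same on both strands. Itgb6 has 2 windows in RefSeq, and the one farther upstream is given.
Itga4, chr2:79255176-79255475, plus strand: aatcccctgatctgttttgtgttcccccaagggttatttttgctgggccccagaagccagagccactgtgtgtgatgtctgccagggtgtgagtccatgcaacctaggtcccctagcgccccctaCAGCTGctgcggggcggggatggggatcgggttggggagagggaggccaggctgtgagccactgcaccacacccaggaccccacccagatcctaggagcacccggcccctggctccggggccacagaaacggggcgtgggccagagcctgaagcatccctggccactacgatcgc
Itgb6, chr2:60722554-60722853, minus strand: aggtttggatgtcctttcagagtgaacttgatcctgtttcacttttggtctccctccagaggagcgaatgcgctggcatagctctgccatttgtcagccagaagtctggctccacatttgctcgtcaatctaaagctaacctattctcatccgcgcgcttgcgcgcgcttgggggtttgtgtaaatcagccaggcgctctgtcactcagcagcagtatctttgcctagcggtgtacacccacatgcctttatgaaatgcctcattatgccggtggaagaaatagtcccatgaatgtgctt
Lama2, chr10:27616893-27617192, minus strand: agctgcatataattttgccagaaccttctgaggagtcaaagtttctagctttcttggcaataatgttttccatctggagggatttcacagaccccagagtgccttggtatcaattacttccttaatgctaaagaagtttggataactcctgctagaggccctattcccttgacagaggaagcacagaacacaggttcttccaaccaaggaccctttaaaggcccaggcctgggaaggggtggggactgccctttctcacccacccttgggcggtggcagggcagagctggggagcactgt
The Itga4 window holds 1 CAGCTG, and the Lama2 window and both Itgb6 windows hold none. RefSeq windows were found for 23 of the 37 members (26 windows), and 8 of these 26 (30.8%) hold CAGCTG, against 16.3% of all 32851 windows. This describes the letters alone and says nothing of binding.

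Other integrins of the named set changed with stage in ways that depended on the library. Itga6 had 13.8, 38.1 and 17.9 CPM across Pax7-positive, Myog-high and Acta1-high barcodes of F/R/C+CP, highest in Myog-high (2.76-fold over Pax7-positive). In F/R/C it had 104, 106 and 43.9 CPM, nearly level at first and 2.37-fold lower in Acta1-high than in Pax7-positive barcodes. Itga7 had 45.0, 53.5 and 75.2 CPM in F/R/C+CP and 144, 93.2 and 149 CPM in F/R/C, without a 2-fold change in either. Itga9 had 10.2, 13.9 and 31.6 CPM in F/R/C+CP, where Acta1-high was 3.11-fold above Pax7-positive, and 27.7, 11.9 and 32.2 CPM in F/R/C, where Acta1-high was not 2-fold different (log2 ratio 0.22, -0.25 to 0.66). By the Acta1-high stage the 2 libraries had nearly the same Itga9 level. Itgb5, another partner of Itgav, rose in both: Acta1-high over Pax7-positive gave 1.51 (1.37 to 1.65) in F/R/C+CP and 1.33 (0.62 to 1.99) in F/R/C. Itga5, the fibronectin receptor chain, stayed between 7.16 and 16.45 CPM in these stages.

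**Figure D3:**
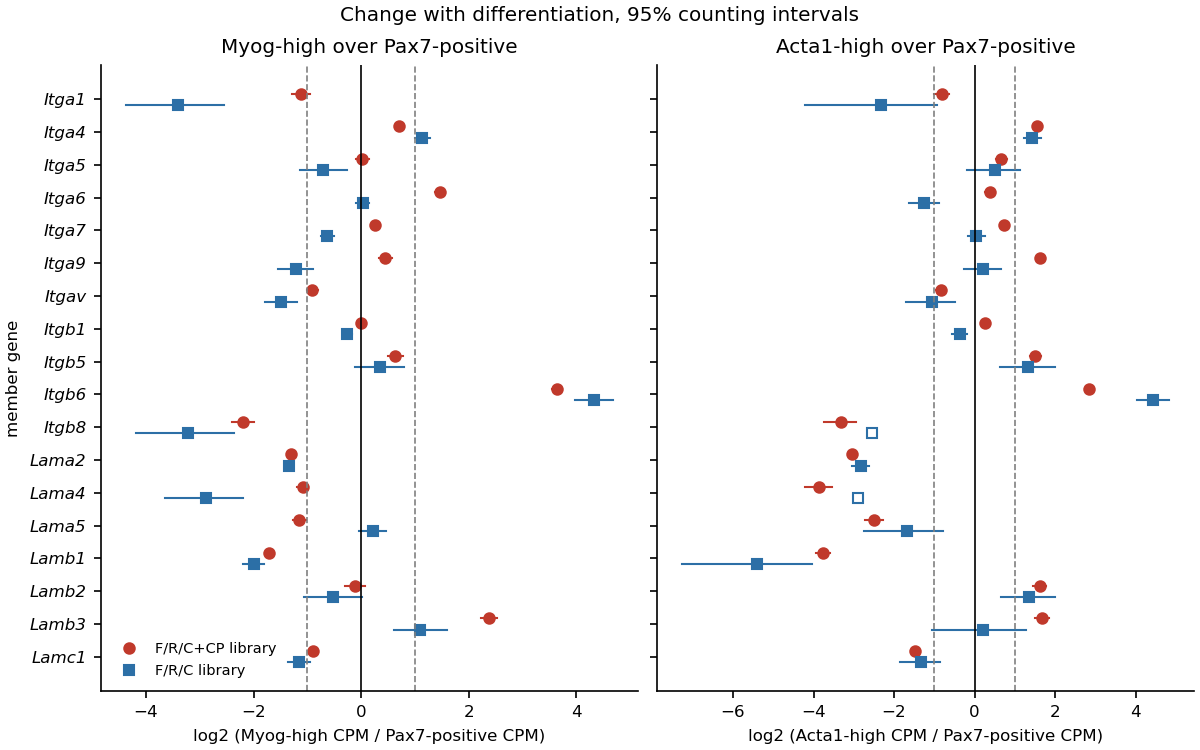
Log2 ratio of CPM over Pax7-positive barcodes for Myog-high (left) and Acta1-high (right) barcodes, with F/R/C+CP as circles and F/R/C as squares, bars for 95% counting intervals, dashed lines at 2-fold and open symbols for bounds where 1 sum was 0. Itgb6 is the highest point in each panel and each library (2.84 to 4.42), and Lamb1 and Lama2 lie left of the 2-fold line in all 4.

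Lama2, Lamb1 and Lamc1, which together form a muscle laminin, were lower in differentiated cells, while Lamb2, the other beta chain, was higher in Acta1-high but not in Myog-high barcodes. Lama2 had 428, 173 and 51.6 CPM across Pax7-positive, Myog-high and Acta1-high barcodes of F/R/C+CP and 994, 391.8 and 139.8 CPM in F/R/C. Acta1-high over Pax7-positive gave a log2 ratio of -3.05 (-3.11 to -2.99) in F/R/C+CP and -2.83 (-3.04 to -2.63) in F/R/C, and at each stage F/R/C+CP had the lower level. Lamb1, the usual beta partner, had 83.9, 25.6 and 6.14 CPM in F/R/C+CP and 115, 28.9 and 2.74 CPM in F/R/C, where the last rests on 4 counts. Its Acta1-high over Pax7-positive ratio was -3.77 (-3.95 to -3.60) in F/R/C+CP and -5.40 (-7.27 to -4.04) in F/R/C. Lamc1 fell less, with 52.9, 28.5 and 18.9 CPM in F/R/C+CP and 63.7, 28.5 and 25.4 CPM in F/R/C. These 3 chains were thus lower in Acta1-high than in Pax7-positive barcodes of both libraries, Lamc1 by 2.80-fold in F/R/C+CP and 2.51-fold in F/R/C.

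Lamb2, the beta chain concentrated at the neuromuscular synapse in adult muscle, rose in Acta1-high but not in Myog-high barcodes. It had 5.21, 4.81 and 16.045 CPM across the stages in F/R/C+CP and 6.98, 4.88 and 17.8 CPM in F/R/C, and Acta1-high over Pax7-positive gave 1.62 (1.46 to 1.78) and 1.35 (0.66 to 1.998). The make-up of the beta chains turned over, with Lamb1 lower and Lamb2 higher in Acta1-high barcodes. The laminin beta sum fell from 93.5 CPM in Pax7-positive to 36.3 CPM in Acta1-high barcodes of F/R/C+CP, and from 127 to 26.0 CPM in F/R/C. In Acta1-high barcodes Lamb1 made up 16.9% (15.1 to 18.8) of laminin beta UMIs in F/R/C+CP and 10.5% (2.94 to 24.8) in F/R/C, against 89.7% and 90.8% in Pax7-positive barcodes. Lamb2 made up 44.2% in F/R/C+CP (41.8 to 46.6) and 68.4% in F/R/C (51.3 to 82.5) of the Acta1-high sum, on totals of 1627 and 38 UMIs.

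Lamb3, a chain that joins Lama3 in the laminin of epithelial basement membranes, was higher in Myog-high than in Pax7-positive barcodes of both libraries. Lamb3 had 4.42, 22.9 and 14.1 CPM across the stages in F/R/C+CP. In F/R/C it had 4.74, 10.1 and 5.48 CPM, the last on 8 counts and near the Pax7-positive level. Myog-high over Pax7-positive gave 2.37 (2.23 to 2.52) in F/R/C+CP and 1.09 (0.60 to 1.59) in F/R/C. Lamb3 made up 38.9% of laminin beta UMIs in Acta1-high barcodes of F/R/C+CP (36.5 to 41.3) and 21.1% in F/R/C (9.55 to 37.3). Its alpha partner was almost absent: Lama3 had 13 counts over all kept barcodes of F/R/C+CP and 1 over those of F/R/C.

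Lama4 and Lama5 were minor alpha chains and fell too. Lama4 had 26.4, 12.5 and 1.81 CPM across the stages in F/R/C+CP. In F/R/C it had 15.3 and 2.06 CPM with no count in Acta1-high barcodes (exact upper limit 2.53 CPM). With that sum set to 3 counts, Lama4 was 7.42-fold below Pax7-positive. Lama5, which is widespread in early basement membranes, had 22.0, 9.94 and 3.88 CPM in F/R/C+CP and 22.0, 25.5 and 6.85 CPM in F/R/C. In Myog-high barcodes Lama4 was 6.05-fold higher (log2 ratio 2.596, 1.95 to 3.33) and Lama5 2.57-fold lower (-1.36, -1.57 to -1.14) in F/R/C+CP than in F/R/C.

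Of the members compared between Acta1-high and Pax7-positive barcodes, 11 were higher and 10 lower of 35 in F/R/C+CP, and 7 higher and 10 lower of 27 in F/R/C. Over all genes 50.9% in F/R/C+CP and 40.8% in F/R/C were called in either direction, 13.5% and 8.57% higher and 37.4% and 32.2% lower. The members' median log2 ratio was 0.54 in F/R/C+CP and -0.13 in F/R/C, the second with 4 members at a bound, against -0.66 and -0.61 over all genes. Between Myog-high and Pax7-positive barcodes 6 members were higher and 9 lower of 36 in F/R/C+CP, and 4 higher and 13 lower of 27 in F/R/C, with 26.2% and 29.3% of all genes called in either direction, 9.67% and 8.64% higher and 16.5% and 20.6% lower. The members' medians there were 0.01 and -0.70, against -0.21 and -0.30 over all genes. Acta1-high barcodes still carried the 6 Pax7-class markers other than Pax7 at 31.4% of the Pax7-positive level in F/R/C+CP and 15.5% in F/R/C. Most of that sum was Sdc4, at 95.6 CPM in Acta1-high and 53.5 CPM in Pax7-positive barcodes of F/R/C+CP and 75.4 and 181 CPM in F/R/C. Without Sdc4 the other 5 stood at 8.41% in F/R/C+CP and 6.65% in F/R/C, and the part of shared or free RNA in these levels was not tested. With all cut-offs doubled, 28 Acta1-high barcodes remained in F/R/C and 5 members were called there in place of 17. With the CPM cut-offs halved, 8 members were called in place of 15 between Myog-high and Pax7-positive barcodes of F/R/C+CP, with Lama2 at -0.81, Lama4 at -0.46, Lama5 at -0.66 and Itga1 at -0.27.

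**Figure D4:**
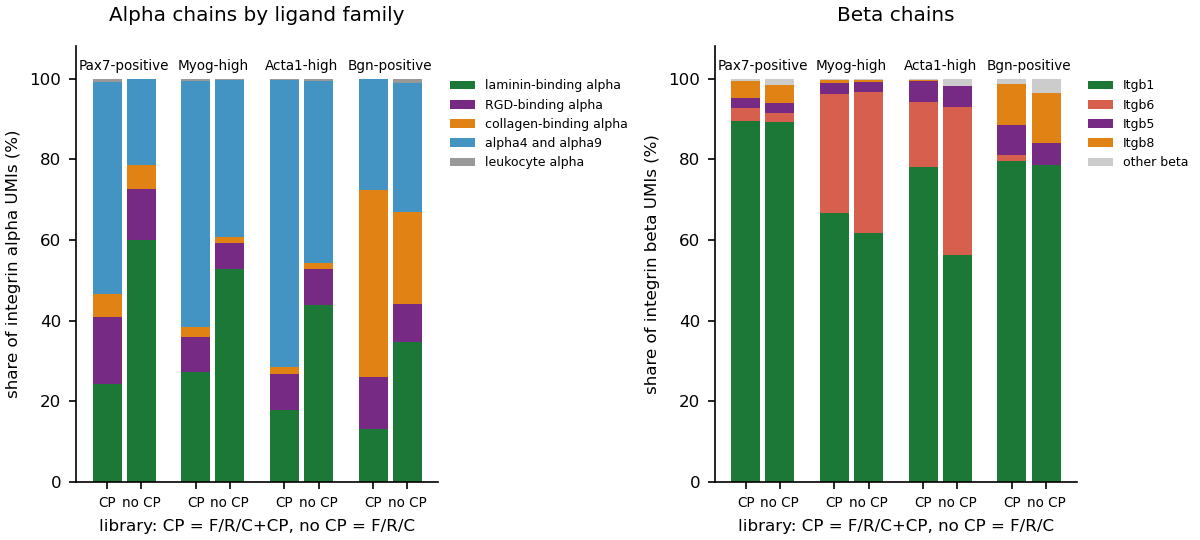
Share in percent of integrin alpha UMIs by ligand family (left) and of integrin beta UMIs by chain (right) in each class, with F/R/C+CP (CP) left of F/R/C (no CP) in each pair of bars. Laminin-binding chains take 24.3% of Pax7-positive alpha UMIs with CP and 59.9% without, and Itgb6 takes 29.4% and 35.0% of Myog-high beta UMIs.

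Bgn-positive barcodes differed from Pax7-positive ones in several receptor chains. Itga1, a collagen receptor chain, had 300.1 CPM in Bgn-positive and 10.4 CPM in Pax7-positive barcodes of F/R/C+CP (log2 ratio 4.85, 4.74 to 4.96), and 121 and 13.7 CPM in F/R/C (3.13, 2.61 to 3.63). Itgb8 had 88.5 CPM in Bgn-positive against 12.3 CPM in Pax7-positive barcodes of F/R/C+CP, and 57.4 against 12.04 CPM in F/R/C. Itga9 had 99.6 against 10.2 CPM in F/R/C+CP and 146 against 27.7 CPM in F/R/C. Itgb5 had 62.5 against 7.12 CPM in F/R/C+CP and 25.8 against 6.82 CPM in F/R/C, on 9 counts in the F/R/C Bgn-positive class. Itgb1 itself was 2.64-fold higher in F/R/C+CP (683 against 259 CPM) and 1.51-fold higher in F/R/C (367 against 243.5 CPM). Itgb5 and Lamb2 were higher both in Bgn-positive and in Acta1-high than in Pax7-positive barcodes, in each library, as was Itga9 in F/R/C+CP.

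Among ligand chains of this class, Lamb2 had 30.4 against 5.21 CPM in F/R/C+CP and 25.8 against 6.98 CPM in F/R/C, on 9 counts in the F/R/C class. Lama5 had 61.4 CPM in Bgn-positive and 22.0 CPM in Pax7-positive barcodes of F/R/C+CP, and 31.6 and 22.0 CPM in F/R/C. Lama2 had 179.9 against 428 CPM in F/R/C+CP and 525 against 994 CPM in F/R/C. Collagen-binding chains made up 46.2% of alpha UMIs in Bgn-positive barcodes of F/R/C+CP (44.4 to 47.9) and 23.0% in F/R/C (17.3 to 29.7). Itga6 had 46.0 against 13.8 CPM in F/R/C+CP and 37.3 against 104 CPM in F/R/C, so the Bgn-positive level was above Pax7-positive in F/R/C+CP and below it in F/R/C, a difference that was not tested.

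In this comparison 17 members were higher and 1 lower of 34 in F/R/C+CP, and 7 higher and 2 lower of 26 in F/R/C, against 24.1% and 7.81% of all genes called in either direction and 16.6% and 5.53% called higher and 7.49% and 2.29% lower. The members' median log2 ratio was 1.44 in F/R/C+CP and 0.58 in F/R/C, with 3 and 5 members at a bound, against 0.21 and 0.19 over all genes. The 6 connective tissue and mural markers other than Bgn (Col1a1, Col3a1, Pdgfrb, Tagln, Myh11 and Acta2) summed to 8583 CPM in Bgn-positive and 436 CPM in Pax7-positive barcodes of F/R/C+CP, and to 2456 and 429 CPM in F/R/C. The class differed in kind between the libraries: the mural genes Tagln, Acta2 and Myh11 had 3402, 3740 and 575 CPM in F/R/C+CP against 459, 649 and 54.5 CPM in F/R/C, and the collagens Col1a1 and Col3a1 had 33.2 and 612 CPM in F/R/C+CP against 195 and 970 CPM in F/R/C. A Pax7 UMI was present in 151 of 206 Bgn-positive barcodes in F/R/C+CP and 31 of 55 in F/R/C, and the part of mixed barcodes in these levels was not tested. The 55 F/R/C barcodes hold 348488 UMIs in all, so 3 counts there are worth 8.61 CPM, and the exact upper limit for a chain with no count, such as Itgb6, was 10.6 CPM. When barcodes were averaged with equal weight, 15 members were 2-fold or more apart in F/R/C, against 9 called. That recount left out the interval condition, so it does not show what the weighting alone changed.

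The genes that act with these chains were read from 3 fixed lists. Of 28 genes of the integrin adhesion complex, which ties integrin tails to actin, 27 were compared between the Pax7-positive classes of F/R/C+CP and F/R/C: 2 were higher and 8 lower, with a median log2 ratio of -0.73. Over all genes 8.61% were higher and 11.4% lower, with a median of -0.12. Nrap, an anchoring protein of muscle cell ends, had 24.7 CPM in F/R/C+CP and 0.883 CPM in F/R/C, and Itgb1bp2 (melusin), a muscle protein that binds the Itgb1 tail, had 36.3 and 6.66 CPM. Actn1, which crosslinks actin at adhesions, had 33.9 CPM in F/R/C+CP and 94.97 CPM in F/R/C, and the adhesion protein Zyx 46.5 and 121 CPM. Nrap and Itgb1bp2 are muscle genes and moved with the muscle markers, which summed to 1688 CPM in the F/R/C+CP class and 173 CPM in the F/R/C class. Their part in these levels was not tested.

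With differentiation the same list split. Acta1-high over Pax7-positive barcodes gave 9 genes higher and 7 lower of 27 in F/R/C+CP and 6 higher and 8 lower of 26 in F/R/C, with medians of 0.38 and -0.47. Over all genes 13.5% in F/R/C+CP and 8.57% in F/R/C were higher and 37.4% and 32.2% lower, with medians of -0.66 and -0.61, so the share of the list that was lower did not exceed that of all genes. Nrap had 363 CPM in Acta1-high and 24.7 CPM in Pax7-positive barcodes of F/R/C+CP, and 238 and 0.883 CPM in F/R/C. Itgb1bp2 had 418 against 36.3 CPM in F/R/C+CP and 234 against 6.66 CPM in F/R/C. Tln2, a talin that links integrin tails to actin, fell in both libraries, at 57.0 against 228 CPM in F/R/C+CP and 65.8 against 391 CPM in F/R/C.

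Most basement membrane partners of laminin were lower in Acta1-high barcodes. Acta1-high over Pax7-positive barcodes gave 1 gene higher and 11 lower of 17 in F/R/C+CP, and 2 higher and 8 lower of 14 in F/R/C, with medians of -1.67 and -1.77, against 37.4% and 32.2% of all genes lower and medians of -0.66 and -0.61. Bcam, a receptor of Lama5, was higher in both libraries, at 121 against 51.2 CPM in F/R/C+CP and 75.4 against 32.1 CPM in F/R/C, and the dystroglycan gene Dag1 stayed within 2-fold. The collagen IV chain gene Col4a1 had 20.6 CPM in Acta1-high and 348 CPM in Pax7-positive barcodes of F/R/C+CP, and 8.91 and 380 CPM in F/R/C, and its partner Col4a2 17.3 against 230.05 CPM and 7.54 against 215 CPM. Between the Pax7-positive classes 3 of 17 partners were higher and 3 lower in F/R/C+CP, with a median of -0.12, equal to that of all genes to 2 decimals. Nid1, a nidogen that joins laminin to collagen IV, had 9.22 CPM in F/R/C+CP and 36.9 CPM in F/R/C, and Col18a1 126 and 441 CPM, while the second nidogen, Nid2, had 44.4 CPM in F/R/C+CP and 21.9 CPM in F/R/C.

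Ligands other than laminin also differed between the libraries. Of 18 such genes, 5 were higher and 8 lower in Pax7-positive barcodes of F/R/C+CP, with a median log2 ratio of -0.68, against 8.61% of all genes higher, 11.4% lower and a median of -0.12. Edil3, a secreted ligand of Itgav receptors, had 1.06 CPM in F/R/C+CP and 81.9 CPM in F/R/C (log2 ratio -6.28, -6.56 to -6.00). Vcam1 had 1.42 and 21.8 CPM (-3.94), and Spp1 (osteopontin), a ligand of Itgav and Itga9 receptors, 114 CPM in F/R/C+CP against 1136 CPM in F/R/C (-3.32). Npnt (nephronectin), the ligand of the Itga8 receptor, rose with differentiation, with 31.5, 124 and 283 CPM across the stages in F/R/C+CP and 19.4, 82.6 and 255 CPM in F/R/C. Its receptor chain Itga8 was low, with 1.9975 CPM in Pax7-positive barcodes of F/R/C+CP and 2.49 CPM in F/R/C, and fell to 0.156 CPM in Acta1-high barcodes of F/R/C+CP and to no count in F/R/C. Tnc (tenascin-C), bound by the Itga9 receptor, fell to 5.85 CPM in Acta1-high barcodes of F/R/C+CP, against 119 CPM in Pax7-positive ones, and to 13.0 against 301 CPM in F/R/C.

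The chains were also read within classes. When Pax7-positive barcodes were split by depth into 3 sets of equal size, Itgb1 had 279, 251 and 255 CPM from the shallowest to the deepest set in F/R/C+CP and 239.6, 237 and 250.4 CPM in F/R/C, and Itga7 had 47.0, 44.5 and 44.2 CPM in F/R/C+CP and 127, 140.5 and 155 CPM in F/R/C. Itgb6 in Myog-high barcodes was higher with depth in both, with 78.2, 110.4 and 131 CPM in F/R/C+CP and 79.6, 91.8 and 146 CPM in F/R/C. Cycling Pax7-positive barcodes (3678 of F/R/C+CP and 974 of F/R/C, by Mki67, Top2a, Ube2c and Cdk1) had 409.9 CPM of Lama2 against 487 CPM in the 1432 non-cycling ones of F/R/C+CP, and 881 against 1214 CPM in the 680 of F/R/C. Of the 18 named chains, only Itga1 in F/R/C+CP was past 2-fold between them, at 7.85 CPM in cycling and 18.8 CPM in non-cycling barcodes.

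The 19 members below 20 CPM included all 5 leukocyte alpha chains (Itgad, Itgae, Itgal, Itgam and Itgax) and their partners Itgb2 and Itgb7. These 5 alpha chains summed to 0.841% of integrin alpha UMIs in Pax7-positive barcodes of F/R/C+CP and 0.154% in F/R/C. The immune markers Ptprc, Cd68, Lyz2 and Tyrobp summed to between 1.13 and 2.17 CPM over the classes of F/R/C+CP and between 0 and 3.45 CPM in F/R/C, with Ptprc at 0 in every class of F/R/C. The highest of the 19 was Itga2b, the platelet fibrinogen receptor chain, with 16.4 CPM in Acta1-high and 2.32 CPM in Pax7-positive barcodes of F/R/C+CP, and 5.48 and 2.09 CPM in F/R/C on 8 and 26 counts. Itga2, a collagen receptor chain, had 1.10 CPM in Pax7-positive barcodes of F/R/C+CP and 7.71 CPM in F/R/C, and Itgb4, the second partner of Itga6, 0.595 and 3.29 CPM. Itga3, Itga8, Itga10, Itga11, Itgb3, Lama1, Lama3 and Lamc3 each stayed at or below 11.5 CPM in every class.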

How the data were processed

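One droplet library of each iMPC clone was analysed. Per the paper's methods and the submitters' processing notes, the authors aligned reads to GRCm39 and counted UMIs with Cell Ranger 7.0.0. The values are deposited raw counts, whole numbers in both matrices. Free-RNA correction is described for F/R/C+CP, and whether these deposited counts carry it was not stated in what was read for this work.

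Barcodes with at least 250 genes, no more than 4000 genes in F/R/C or 7000 in F/R/C+CP, at most 15% mitochondrial and 40% ribosomal counts were kept. Classes were rebuilt from single genes. UMIs were pooled to counts per 1000000 (CPM), and sums of 0 were set to 3 counts as a bound. Members at 20 CPM or more in any class were named, with the genes of the 3 lists that changed most. Scrublet (scanpy 1.11.5) called 299 and 4 doublets in F/R/C+CP and F/R/C, the second too few to have worked, so none were removed in the values given. As an alternative, the 1040 and 176 highest scores were removed. Python 3.11.15, numpy 2.4.6, scipy 1.17.1 and pandas 2.3.3 were used, and the ratio code was tested on simulated data. Members and lists were chosen with earlier results of these data known. Some genes of these lists are not reported here.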

Additional observations from a re-analysis of the deposited data

Results flagged for a closer look

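For 6 chains the libraries moved in opposite directions under the same class comparison, and the difference between the libraries was not tested in any of them. Relative to Pax7-positive barcodes, Itga6 in Acta1-high barcodes had a log2 ratio of 0.38 in F/R/C+CP and -1.25 in F/R/C, and in Bgn-positive barcodes 1.74 in F/R/C+CP and -1.48 in F/R/C, the last on 13 counts. Itgb1 in Acta1-high barcodes had 0.27 in F/R/C+CP and -0.37 in F/R/C. Itgb3, the partner of Itga2b and Itgav, had -1.24 in F/R/C+CP (12 against 71 counts) and 2.44 in F/R/C (7 against 11 counts) in Acta1-high barcodes. In Myog-high barcodes Itga7 had 0.25 in F/R/C+CP and -0.63 in F/R/C, and Itga9 0.45 and -1.22. Lama4 in Bgn-positive barcodes had -0.39 in F/R/C+CP and 1.84 in F/R/C, the second on 19 counts.

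The barcodes removed by the quality limits also held both families. In the 1166 removed F/R/C+CP barcodes integrins summed to 1106 CPM and laminins to 393 CPM, against 681 and 420 CPM in kept barcodes. In the 1579 removed F/R/C barcodes integrins summed to 808 CPM and laminins to 599 CPM, against 707 and 875 CPM in kept barcodes. The level of 3 counts was 0.0719 CPM and 0.328 CPM in these removed sets. The removed barcodes had median mitochondrial shares of 17.3% in F/R/C+CP and 25.4% in F/R/C, against 5.55% and 8.08% in kept ones.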

How the results depend on the processing

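Of 79 recounts of members past 2-fold under the alternatives, 76 stayed within 1.5 times the value given. The exceptions were Acta1-high over Pax7-positive in F/R/C with cut-offs doubled (5 in place of 17), Myog-high over Pax7-positive in F/R/C+CP with CPM cut-offs halved (8 in place of 15), and Bgn-positive over Pax7-positive in F/R/C with barcodes weighted equally (15 in place of 9). Recounts with barcodes weighted equally used the 2-fold limit without the interval condition, so they are not counts by the same rule. Of 698 recomputed ratios of the 70 called, 24 fell under 2-fold, and 1 of these changed sign: Itgb5 at -0.10 on 1 count, in F/R/C Acta1-high over Pax7-positive barcodes with cut-offs doubled, where 28 Acta1-high barcodes with 156754 UMIs were left. Itga1, Itgb8 and Lama4 had no count in those 28 barcodes, so their values of 0.36, 0.62 and 0.21 are upper bounds set by 3 counts and give no direction. The Pax7-positive library ratio ranged from -3.15 to -2.76 for Itga6, from -1.76 to -1.59 for Itga7 and from -1.45 to -1.11 for Lama2. Itgb6 in Myog-high over Pax7-positive barcodes ranged from 3.34 to 3.90 in F/R/C+CP and from 4.23 to 4.43 in F/R/C. Itga9 between the Pax7-positive classes fell under 2-fold in the shared depth range. No paired analysis was possible because each group holds 1 library. The smallest sums, 348488 UMIs in Bgn-positive and 1458969 in Acta1-high barcodes of F/R/C, set the limit for low chains: 3 counts there are worth 8.61 and 2.06 CPM.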
